A study of Mus musculus with 49 samples.

Results

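Levels of 9 genes of postsynaptic calcium and Ras signaling were followed across 3 hippocampal subfields and 3 mouse genotypes. The members were Nrgn, Camk2b, Camk4, Itpka, Homer2, Ptk2b, Rasgrf1, Rin1 and Rasd2, taken as every probe set (the group of short probes that reads a transcript) whose platform gene symbol was 1 of these names. The rule found 13 probe sets, for 9 of the 11807 genes with a symbol of their own on the array. Rasgrf1 had 3 probe sets, Camk4 and Rasd2 had 2 each, and the others had 1. All 9 genes were measured on all 49 arrays and none was removed by a filter. Where a gene had several probe sets, the brightest over all arrays stands for it below.

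Arrays were made from female littermates aged 6.1 months, from a cross of a TRE-htau (P301L) line with a CaMKIIα-tTA line, which were kept on different inbred strains. rTg4510 mice carried both transgenes, so that the transactivator drove mutant human tau in forebrain neurons that use the Camk2a promoter. tTA mice carried only the transactivator, and DN (double negative) mice carried neither. A laser cut the pyramidal cell layer out of stained sections for CA1 and CA3, and the granular layer for the dentate gyrus (DG), so each array read the RNA of a whole layer and not of a single cell type. There were 6 DN, 5 tTA and 5 rTg4510 arrays of CA1. CA3 had 5 DN, 5 tTA and 6 rTg4510 arrays, while DG had 6 DN, 5 tTA and 6 rTg4510 arrays. Most mice gave an array in each subfield, 17 mice in all (6 DN, 5 tTA and 6 rTg4510). The mouse is the replicate throughout. Animal numbers of DN mice ran from mouse4797 to mouse4886 and those of the tTA and rTg4510 mice from mouse4535 to mouse4666, and the sources used here name no batch, so any batch that follows those numbers cannot be told apart from DN against transgenic mice. Averages of marker genes matched the labeled layers: the CA1 pyramidal marker list read 9.43 ± 0.10 (SD, n = 6) in DN CA1 against 5.37 ± 0.27 (SD, n = 5) in DN CA3 and 6.07 ± 0.17 (SD, n = 6) in DN DG, on the log2 scale. The CA3 list read 8.16 ± 0.17 (SD, n = 5) in DN CA3, above 5.94 in CA1 and 6.05 in DG, and the granule cell list read 7.76 ± 0.19 (SD, n = 6) in DN DG, above 5.47 in CA1 and 4.46 in CA3.

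At excitatory synapses, calcium that enters through NMDA receptors binds calmodulin, which switches on calcium/calmodulin-dependent kinases and calcium-sensitive exchange factors of Ras. Nrgn (neurogranin) holds calmodulin at rest, Camk2b is the actin-binding subunit of CaM kinase II, and Camk4 is a nuclear CaM kinase that phosphorylates CREB. Itpka phosphorylates inositol trisphosphate and binds actin in spines, Homer2 is a scaffold that ties group I metabotropic glutamate receptors to calcium stores, and Ptk2b (Pyk2) is a calcium-activated tyrosine kinase. Rasgrf1 is a calcium- and calmodulin-dependent exchange factor of Ras, Rin1 is a Ras effector that activates Rab5, and Rasd2 (Rhes) is a Ras-like GTPase best known from the striatum. In the hippocampus these genes are used mainly by principal neurons.

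In the mouse reference GRCm38.p6, 8 of the 9 genes are placed here by their positions: Itpka at chr2:119742337-119751253, Homer2 at chr7:81600481-81706925, Rasd2 at chr8:75213944-75224113, Nrgn at chr9:37544493-37552745, Rasgrf1 at chr9:89909508-90026979, Camk2b at chr11:5969629-6066357, Ptk2b at chr14:66153257-66281100 and Rin1 at chr19:5049999-5057071. RefSeq promoter windows were at hand for 7 of the 9 members, in 8 windows. The 250 bases upstream of the start are shown for the 4 members whose window starts at the outermost annotated start of the gene. These 4 were among the 8 members that fell in CA1 of rTg4510 against tTA mice (given below), and were not picked by that fall. Capitals mark matches on either strand to the GC box GGGCGG and the CCAAT box; none of the 4 held the TATA box TATAAA or the CRE core TGACG.
Nrgn, chr9:37552746-37552995, minus strand: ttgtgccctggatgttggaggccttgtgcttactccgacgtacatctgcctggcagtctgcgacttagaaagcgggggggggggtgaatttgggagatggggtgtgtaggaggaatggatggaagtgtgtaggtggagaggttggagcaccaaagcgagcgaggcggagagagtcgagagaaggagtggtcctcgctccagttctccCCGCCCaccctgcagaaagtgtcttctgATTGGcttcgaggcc
Itpka, chr2:119742087-119742336, plus strand: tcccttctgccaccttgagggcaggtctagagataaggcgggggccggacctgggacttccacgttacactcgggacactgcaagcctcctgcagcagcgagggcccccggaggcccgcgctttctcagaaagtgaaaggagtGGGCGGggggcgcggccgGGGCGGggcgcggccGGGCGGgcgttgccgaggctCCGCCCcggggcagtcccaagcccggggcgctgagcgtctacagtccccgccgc
Homer2, chr7:81706926-81707175, minus strand: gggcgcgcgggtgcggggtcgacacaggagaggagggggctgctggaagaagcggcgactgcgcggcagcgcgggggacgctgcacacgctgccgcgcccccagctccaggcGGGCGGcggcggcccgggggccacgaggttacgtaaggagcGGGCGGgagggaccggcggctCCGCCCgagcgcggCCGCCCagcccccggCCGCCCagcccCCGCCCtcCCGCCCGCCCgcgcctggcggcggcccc
Rasd2, chr8:75213694-75213943, plus strand: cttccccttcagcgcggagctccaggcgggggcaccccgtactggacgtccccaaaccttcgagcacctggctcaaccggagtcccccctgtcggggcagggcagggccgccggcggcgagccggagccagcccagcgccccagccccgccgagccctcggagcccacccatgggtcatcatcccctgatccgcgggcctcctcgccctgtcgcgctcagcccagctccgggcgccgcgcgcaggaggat
These windows differed among themselves. The Homer2 window held 8 GC boxes, some of them overlapping, the Itpka window held 4, the Nrgn window held 1 with 1 CCAAT box that did not overlap it, and the Rasd2 window held none of the motifs. GC content was 83.2% upstream of Homer2, 75.2% upstream of Rasd2, 72.8% upstream of Itpka and 58.4% upstream of Nrgn. Over the 8 member windows, the GC box was found in 5, the CCAAT box in 2, the CRE core in 1 (Rasgrf1) and the TATA box in 1 (the inner Homer2 start). Of all 32851 promoter windows of the same length, 32.7% held the GC box, 33.8% the CCAAT box, 17.8% the CRE core and 12.4% the TATA box. A match is a stretch of letters and not a measured binding site.

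**Figure D1:**
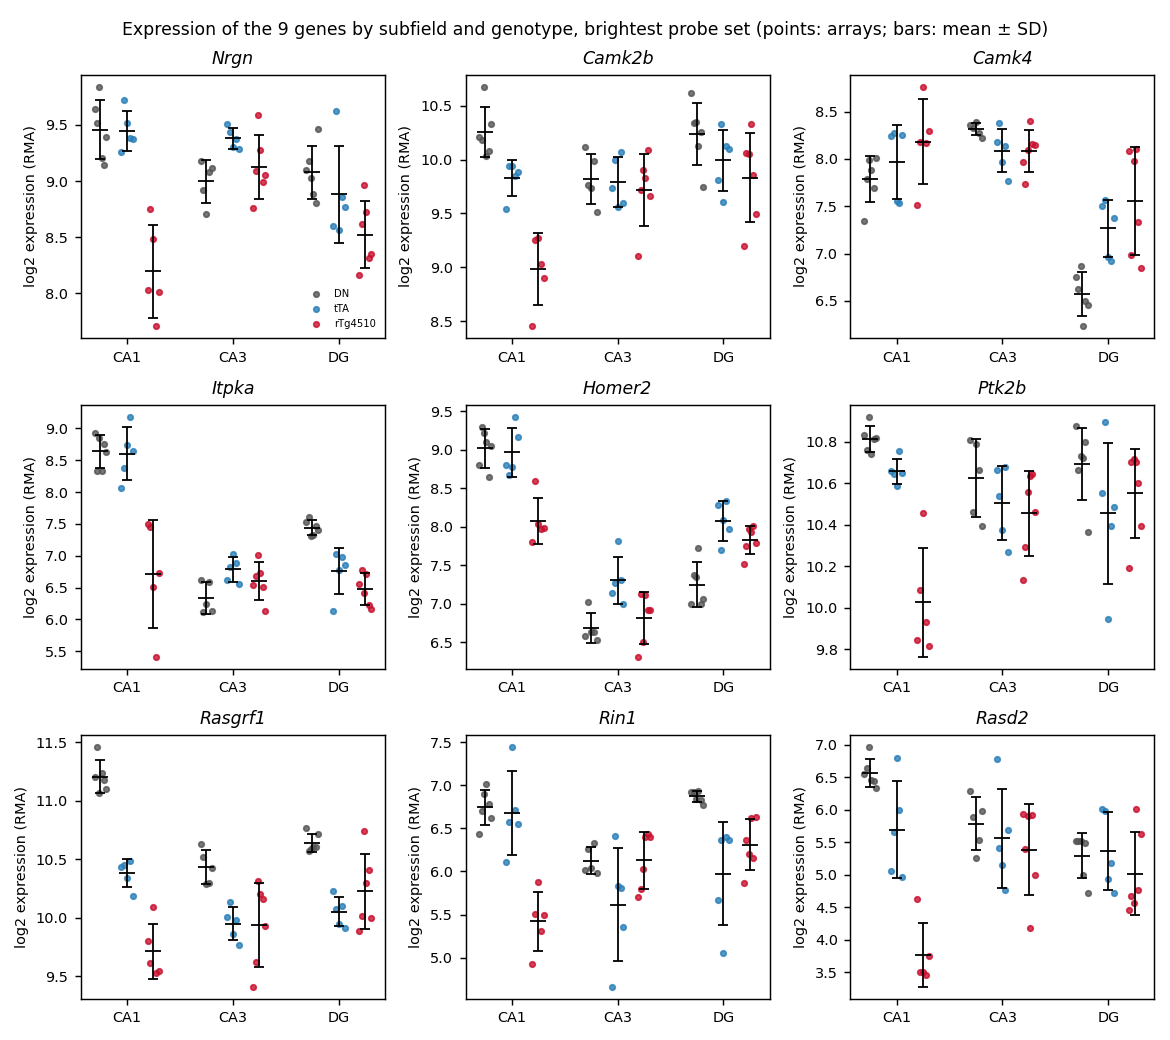
Expression of each gene by subfield (x axis) on the log2 RMA scale (y axis, a range of its own in each panel). Points are arrays of DN (grey), tTA (blue) and rTg4510 (red) mice, and bars are the mean ± SD. In CA1, rTg4510 arrays lie below all tTA arrays for 8 genes and overlap them for Camk4. How many of all genes had arrays so apart was not counted.

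The starting point is the layer in which each gene is used in DN mice. Itpka and Homer2 were CA1 genes, Camk4 was lowest in DG, and no difference of Ptk2b between subfields reached the threshold given next. Values are RMA intensities on the log2 scale, so a difference of 1 is a change of 2-fold, and a gene was called at an adjusted p below 0.05 over all 22626 probe sets in a limma model of the 9 groups with mouse as a random block. From CA1 to CA3, 5 of 9 members were higher in CA1, where 6.73% of all genes were, and 1 was lower, where 7.08% of all genes were. From CA1 to DG, 5 of 9 were higher in CA1 against 9.44% of all genes. From CA3 to DG, 1 member was higher in CA3 against 11.6% of all genes and 3 were lower against 10.7%.

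Homer2 read 8.64 to 9.30 in the 6 DN CA1 arrays (median 9.07), 6.52 to 7.02 in the 5 DN CA3 arrays (median 6.63) and 6.99 to 7.72 in the 6 DN DG arrays (median 7.20). Every CA1 array lay above every array of the other layers. The difference was 2.33 ± 0.15 (SE) from CA3 (adjusted p = 2.14e-16) and 1.77 ± 0.14 (SE) from DG (adjusted p = 1.45e-13). CA3 minus DG was a smaller step, -0.56 ± 0.15 (SE), adjusted p = 0.00447, and that call was lost without mouse4866 (-0.45, adjusted p = 0.0534). Itpka showed a similar order with wider steps between CA3 and DG. Its DN arrays read 8.33 to 8.93 in CA1 (median 8.70), 6.11 to 6.62 in CA3 (median 6.23) and 7.31 to 7.61 in DG (median 7.43), and no layers overlapped. CA1 exceeded CA3 by 2.30 ± 0.20 (SE) and DG by 1.20 ± 0.19 (SE), with adjusted p of 2.97e-12 and 4.41e-06, and CA3 minus DG was -1.10 ± 0.20 (SE, adjusted p = 3.93e-05).

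Camk4, the nuclear kinase, was lower in the DG granule cell layer than in both pyramidal layers. It read 6.23 to 6.87 in DN DG (median 6.56), 7.35 to 8.01 in CA1 (median 7.84) and 8.23 to 8.39 in CA3 (median 8.33). All DG arrays were below those of both pyramidal layers, by 1.21 ± 0.17 (SE) from CA1 (adjusted p = 4.65e-07) and 1.74 ± 0.18 (SE) from CA3 (adjusted p = 2.25e-10), and the second Camk4 probe set gave 1.13 and 1.61. Camk4 was also lower in CA1 than in CA3 (difference -0.53, adjusted p = 0.0477), a call that was lost when any 1 of the 6 DN mice was left out (adjusted p from 0.0599 to 0.224).

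Rasgrf1 and Rasd2 were higher in CA1 than in DG, and Rin1 was not. Rasgrf1 read 11.07 to 11.46 in DN CA1 (median 11.19), above all DN CA3 arrays (10.29 to 10.63) and all DN DG arrays (10.57 to 10.76). Its CA1 excess was 0.77 ± 0.12 (SE) over CA3 (adjusted p = 1.43e-06) and 0.57 ± 0.11 (SE) over DG (adjusted p = 9.55e-05). The third Rasgrf1 probe set overlapped between CA1 (9.31 to 9.66) and DG (8.75 to 9.42) of DN mice. CA3 minus DG of Rasgrf1 was -0.21 without a call (adjusted p = 0.24), and was called by the mean of its probe sets (adjusted p = 0.000528). Rasd2 exceeded DG by 1.27 ± 0.31 (SE) in CA1 (adjusted p = 0.00182), with 6.34 to 6.97 in CA1 against 4.72 to 5.53 in DG. Its difference of 0.77 from CA3 was not called (adjusted p = 0.128). All its CA1 arrays lay above all CA3 arrays (5.26 to 6.29), and how many of all genes were so apart was not counted. Rin1 was lower in CA3 than in DG, a difference of -0.75 ± 0.21 (SE, adjusted p = 0.00657), with no overlap of arrays. In CA1 it read 6.44 to 7.02 against 6.77 to 6.94 in DG, where its mean was highest, and CA1 minus DG was -0.13 (95% interval -0.53 to 0.28, adjusted p = 0.78). The higher CA1 level of Rin1 against CA3 (0.62, adjusted p = 0.0415) was lost without any 1 of the 6 DN mice (adjusted p from 0.0593 to 0.177). That of Nrgn (0.45, adjusted p = 0.0383) was lost without any 1 of mouse4797, mouse4806, mouse4825, mouse4866 and mouse4886 (adjusted p from 0.0523 to 0.232). Camk2b lay 0.43 above CA3 in CA1 (95% interval 0.11 to 0.75, adjusted p = 0.0636) and Ptk2b 0.19 above it (-0.03 to 0.42, adjusted p = 0.337), neither called, though Camk2b was called without mouse4797 (0.51, adjusted p = 0.0495). Nrgn lay 0.38 above DG in CA1 without a call (adjusted p = 0.0629), and was called without mouse4886 (0.47, adjusted p = 0.0386).

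**Figure D2:**
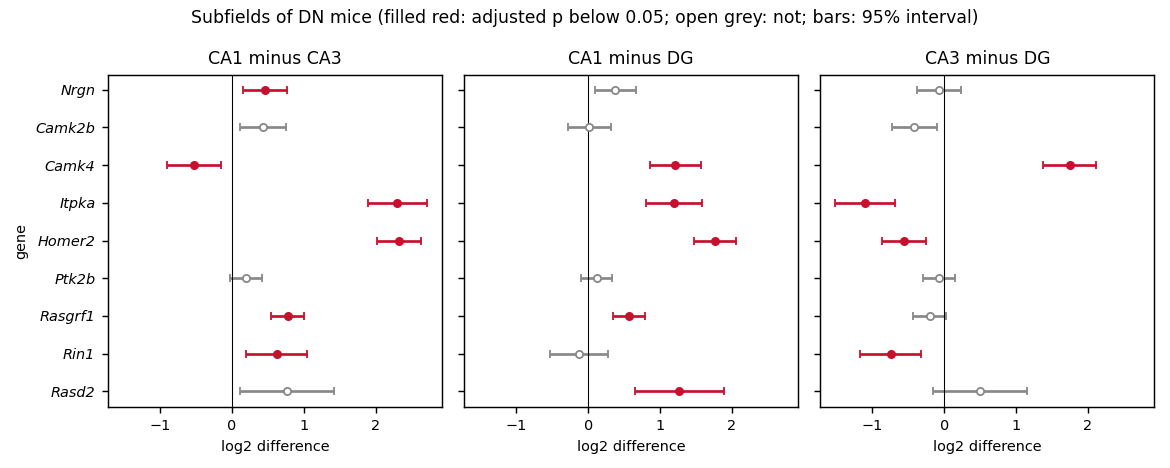
Differences between the subfields of DN mice for each gene (x axis, log2 difference, with the 95% interval as bars). Filled red points were called at adjusted p below 0.05 and open grey points were not; Homer2 and Itpka lie farthest to the right in CA1 minus CA3, at 2.33 and 2.30.

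The main comparison set rTg4510 against tTA mice, which share the transactivator and differ in the tau transgene. In CA1, 8 of the 9 genes were lower in rTg4510 mice, where 5.40% of all genes were lower, and none was higher. The members were chosen with earlier results of these data known, so the excess over that share may partly follow from the choice. The median difference over the members was -0.89, against -0.04 over all genes. Of the 13 probe sets, 11 were called lower, and the others were both probe sets of Camk4. For all 8 genes, each rTg4510 array read below each tTA array. How many of all genes had arrays wholly apart was not counted, here or in any other comparison. Each of the 8 calls held when any 1 rTg4510 or tTA mouse was left out. In RNA of a whole layer, fewer cells that use a gene and less of its RNA per cell cannot be told apart.

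Among the calmodulin genes, Nrgn fell furthest. The 5 tTA CA1 arrays read 9.26, 9.37, 9.39, 9.52 and 9.72, and the 5 rTg4510 arrays read 7.71, 8.01, 8.03, 8.49 and 8.75. The highest rTg4510 array thus lay below the lowest tTA array, and the fall was 2.38-fold, a difference of -1.25 ± 0.18 (SE, adjusted p = 0.000684). Camk2b read 9.54, 9.85, 9.89, 9.94 and 9.94 in tTA and 8.45, 8.90, 9.03, 9.26 and 9.27 in rTg4510 CA1. Its groups were apart by a narrow gap and the difference was -0.85 ± 0.15 (SE, adjusted p = 0.00277), or 1.80-fold. Camk4, the nuclear kinase, stood outside this pattern. Its tTA arrays read 7.53, 7.55, 8.24, 8.25 and 8.27 and its rTg4510 arrays 7.52, 8.17, 8.17, 8.29 and 8.77, so the groups overlapped over most of their range. The difference was 0.21 with a 95% interval of -0.24 to 0.66 (adjusted p = 0.591), and its second probe set gave 0.14 (-0.33 to 0.61).

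Itpka, the inositol trisphosphate kinase of spines, fell 3.70-fold in CA1. Its tTA arrays read 8.06, 8.39, 8.65, 8.74 and 9.19 and its rTg4510 arrays 5.42, 6.51, 6.73, 7.45 and 7.49. The rTg4510 arrays were the more scattered, with an SD of 0.85 against 0.42, and the difference was -1.89 ± 0.31 (SE, adjusted p = 0.00176). The rTg4510 mean, 6.72, was near the level of Itpka in CA3 of DN mice (6.34 ± 0.25, SD, n = 5). Homer2, the scaffold, read 8.67, 8.77, 8.80, 9.17 and 9.43 in tTA and 7.80, 7.96, 7.98, 8.04 and 8.59 in rTg4510 CA1. It fell by 0.89 on the log2 scale (SE 0.17, adjusted p = 0.00408), and at 8.07 ± 0.30 (SD, n = 5) it still lay above its DN CA3 and DN DG means of 6.68 and 7.25. Ptk2b, the calcium-activated tyrosine kinase, had the smallest fall of the 8, from 10.59, 10.65, 10.65, 10.66 and 10.75 to 9.82, 9.84, 9.93, 10.09 and 10.46. The tTA arrays of Ptk2b were tightly grouped (SD 0.06), and the difference was -0.63 ± 0.10 (SE, adjusted p = 0.0015).

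The Ras genes fell as well. Rasd2 read 4.97, 5.06, 5.65, 6.00 and 6.80 in tTA CA1 and 3.47, 3.50, 3.51, 3.76 and 4.63 in rTg4510 CA1. No other member had so large a difference here, -1.92 ± 0.30 (SE, adjusted p = 0.00111), or 3.80-fold. All rTg4510 CA1 arrays were below 5.04, the median over all probe sets, so this probe set was dim there, and its second probe set, 4.42 in rTg4510 and 5.24 in tTA, differed by less (-0.82 ± 0.17, SE, adjusted p = 0.00646). Rin1 read 6.11, 6.55, 6.58, 6.72 and 7.44 in tTA and 4.93, 5.31, 5.49, 5.51 and 5.87 in rTg4510. It fell 2.39-fold, a difference of -1.26 ± 0.21 (SE, adjusted p = 0.00161), to a level also close to the median of all probe sets. Rasgrf1, the calmodulin-dependent exchange factor, read 10.19, 10.34, 10.44, 10.45 and 10.49 in tTA and 9.53, 9.55, 9.61, 9.80 and 10.09 in rTg4510. The difference was -0.67 ± 0.11 (SE, adjusted p = 0.00175), and the other probe sets gave -0.56 and -0.97, both called, the last with overlapping arrays.

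Among the 5 rTg4510 CA1 arrays, the lowest reading of a member came from mouse4535 for 4 genes, from mouse4653 for 4 and from mouse4666 for 1. The mean over the 9 genes ran from 7.39 (mouse4653) to 7.89 (mouse4600) in rTg4510, and from 8.46 to 8.85 in tTA. Other markers moved in the same layer. Of the microglia markers, 9 of 11 measured were higher in rTg4510 than in tTA CA1 (median 1.77), and their mean level ran from 6.68 to 7.77 on rTg4510 arrays and from 5.52 to 5.91 on tTA arrays. Of the astrocyte markers, 6 of 8 were higher (median 0.88), as were 4 of 7 oligodendrocyte, 4 of 8 endothelial and mural and 7 of 9 interneuron markers. Of 14 pan-neuronal markers none was called (median 0.15; the mean level ran from 9.25 to 10.01 in rTg4510 and from 9.27 to 9.76 in tTA). All 3 CA1 pyramidal markers measured were lower (median -1.48), with mean levels of 6.73 to 8.22 on rTg4510 arrays and 8.57 to 9.51 on tTA arrays. The part of these shifts in the members' falls was not tested. The gap between the 3-prime and 5-prime control probe sets of Actb, a sign of how intact the amplified RNA was, averaged -0.48 ± 0.07 (SD, n = 5) in rTg4510 and -0.70 ± 0.16 (SD, n = 5) in tTA CA1. With that gap as a covariate all 8 genes were still called, with differences from -0.60 for Ptk2b to -1.98 for Rasd2 (adjusted p from 0.00518 for Rasgrf1 to 0.0168 for Camk2b).

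In the other layers the members were not called between rTg4510 and tTA mice. In CA3, 0 of 9 were called, where 1.16% of all genes were called in either direction. Homer2 came nearest, with 6.997 to 7.81 in tTA and 6.31 to 7.12 in rTg4510 mice and a difference of -0.49 (95% interval -0.84 to -0.15, adjusted p = 0.162). Rin1 lay the other way, at 0.51 (0.02 to 1.01, adjusted p = 0.319). In DG, 0 of 9 were called, where 0.796% of all genes were, and the differences ran from -0.36 for Nrgn (-0.74 to 0.03) to 0.34 for Rin1 (-0.10 to 0.77). At unadjusted p below 0.05, 2 members passed in CA3 (Homer2 and Rin1) and none in DG. The share of all genes at that unadjusted threshold was not counted, here or below, so such counts have no background to be read against.

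**Figure D3:**
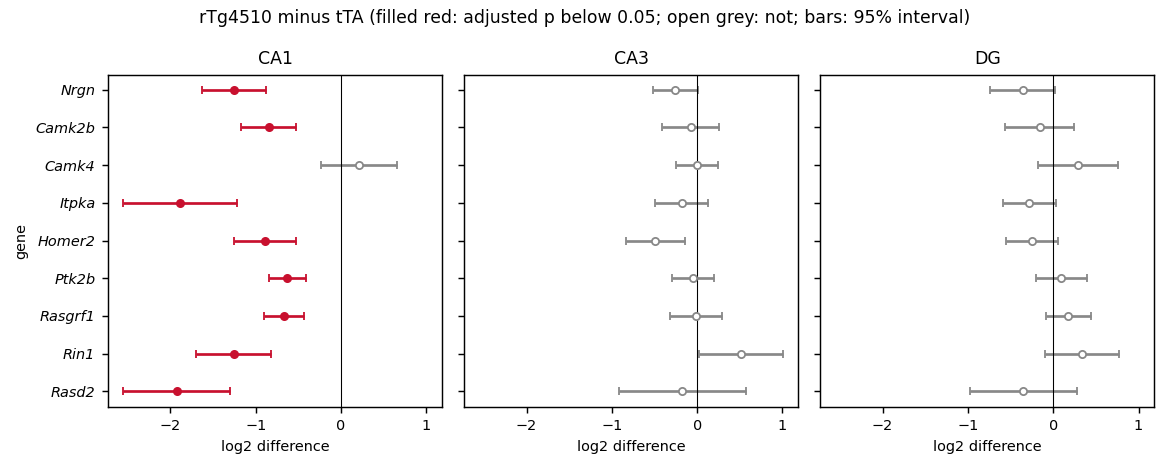
Differences rTg4510 minus tTA for each gene in CA1, CA3 and DG (x axis, log2 difference; bars, 95% interval). Filled red points were called at adjusted p below 0.05: 8 in CA1, none in CA3 or DG.

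Whether the difference itself varied between layers was tested as an interaction over all 49 arrays. The rTg4510 minus tTA difference was more negative in CA1 than in CA3 for 7 of 9 members, against 1.78% of all genes. It was more negative in CA1 than in DG for 6 of 9, against 2.53% of all genes. Both tests use the same CA1 arrays as above, so the excess over those shares may partly follow from the choice of members too. Between CA3 and DG, 0 of 9 were called, against 0.0169% of all genes, and none passed an unadjusted p below 0.05. The gap between CA1 and CA3 was -1.76 ± 0.30 (SE, adjusted p = 0.000903) for Rin1, -1.70 ± 0.29 (SE, adjusted p = 0.000936) for Itpka and -0.99 ± 0.22 (SE, adjusted p = 0.00709) for Nrgn. Rasd2 gave -1.76 ± 0.47 (SE, adjusted p = 0.0248) by the probe set that was dim in rTg4510 CA1 and -1.09 ± 0.29 (SE, adjusted p = 0.0214) by its second. Smaller gaps were called for Camk2b (-0.76, adjusted p = 0.0455), Rasgrf1 (-0.65, adjusted p = 0.0195) and Ptk2b (-0.57, adjusted p = 0.0344). Homer2 (-0.39, 95% interval -0.83 to 0.05) and Camk4 (0.23, -0.30 to 0.77) were not called.

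The interaction calls of CA1 against CA3 were not equally firm. Those of Nrgn, Itpka and Rin1 held without any 1 rTg4510 or tTA mouse, and DN mice were not left out here. That of Rasgrf1 was lost without mouse4626, mouse4653 or mouse4666 (adjusted p from 0.0505 to 0.0863), that of Ptk2b without mouse4621, mouse4626, mouse4637, mouse4653 or mouse4666 (0.0512 to 0.118), that of Rasd2 without mouse4592, mouse4600, mouse4626 or mouse4653 (0.0594 to 0.102), and that of Camk2b without any 1 of 7 mice, all but mouse4535, mouse4549, mouse4570 and mouse4621 (0.0502 to 0.127). Without the mouse block, the calls of Camk2b (adjusted p = 0.0906) and Ptk2b (0.0662) were lost, as they were with the Actb gap as a covariate (0.0683 and 0.0711), and that of Camk2b with array weights (0.0736). With mouse as a fixed term, that of Rasd2 was lost (0.0553). The count of 7 fell to 3 without mouse4626 or mouse4653 and to 4 without mouse4666. Against DG, the gaps were -1.60 for Itpka, -1.58 for Rin1, -1.58 for Rasd2, -0.89 for Nrgn, -0.83 for Rasgrf1 and -0.72 for Ptk2b. Of the 13 probe sets, 7 were called lower against DG and 9 against CA3. Not both of the other Rasgrf1 probe sets were thus called in either test. Among the gaps called against DG, only that of Rasd2 was lost in other fits. It was lost without the mouse block (adjusted p = 0.0526), with mouse as a fixed term (0.0783) and without mouse4592, mouse4621, mouse4626, mouse4637, mouse4653 or mouse4666 (adjusted p from 0.0521 to 0.154), and its second probe set was not called (-0.62, adjusted p = 0.23). Homer2 (-0.64, adjusted p = 0.0753) and Camk2b (-0.68, adjusted p = 0.0678) were not called against DG. Both were called once dim probe sets were filtered out, as were Homer2 without mouse4549 (-0.78, adjusted p = 0.0209) and Camk2b without mouse4535 (-0.68, adjusted p = 0.0451), with arrays centred on their medians, or with mouse as a fixed term (-0.63, adjusted p = 0.026).

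Against DN mice, which share the rTg4510 arrays with the comparison above, 8 of 9 members were lower in rTg4510 CA1, where 12.5% of all genes were. That excess may partly follow from the choice of members too. Rasd2 differed by -2.79 ± 0.28 (SE, adjusted p = 6.36e-06) and Rasgrf1 by -1.49 ± 0.11 (SE, adjusted p = 3.15e-07), from DN CA1 arrays of 6.34 to 6.97 and 11.07 to 11.46. Itpka (-1.92), Rin1 (-1.32), Camk2b (-1.27), Nrgn (-1.26), Homer2 (-0.94) and Ptk2b (-0.79) followed, with rTg4510 and DN arrays apart for each. Camk4 was 0.40 higher without a call (adjusted p = 0.174), and was called without mouse4535 (0.56, adjusted p = 0.0424). In CA3, 0 of 9 were called by the brightest probe set, where 3.36% of all genes were called, and 1 passed an unadjusted p below 0.05, Rasgrf1 at -0.49 (adjusted p = 0.0763). Its second probe set was called there (-0.61, adjusted p = 0.035). Without mouse4600, the brightest was called too (-0.57, adjusted p = 0.0441).

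In DG, rTg4510 and DN mice differed in 4 members. Camk4 and Homer2 were higher in rTg4510 DG, against 4.59% of all genes, and Itpka and Rasgrf1 were lower, against 5.24%. Camk4 read 6.85 to 8.10 (median 7.66) in 6 rTg4510 arrays and 6.23 to 6.87 (median 6.56) in 6 DN arrays, where only the lowest rTg4510 array reached the DN range, and differed by 0.98 ± 0.21 (SE, adjusted p = 0.00747). Itpka read 6.17 to 6.77 against 7.31 to 7.61, wholly apart, and differed by -0.97 ± 0.14 (SE, adjusted p = 0.000303). Homer2 differed by 0.58 (adjusted p = 0.0124). Nrgn differed by -0.55 without a call (adjusted p = 0.057), and was called without mouse4600 (-0.64, adjusted p = 0.0301). Rasgrf1 differed by -0.41 (adjusted p = 0.0372), a call lost without any 1 of the 6 DN mice or of mouse4535, mouse4549 and mouse4666 (adjusted p from 0.0505 to 0.0878), while its other probe sets gave -0.51 and -0.68, with arrays wholly apart and adjusted p of 0.0101 and 0.00887.

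Glial markers and the Actb gap moved with rTg4510 against DN too. All 11 microglia markers (median 2.30) and all 8 astrocyte markers (median 1.38) were higher in rTg4510 CA1, where the microglia mean level ran from 6.68 to 7.77, against 5.05 to 5.44 in DN. In DG, 8 of 11 (median 1.65) and 7 of 8 (median 1.05) were higher, with microglia levels of 6.18 to 6.64 against 4.76 to 5.36. All 3 CA1 pyramidal markers measured were lower in rTg4510 CA1 (median -2.04). Of 7 dentate granule markers in DG, 1 was higher and 2 were lower (median -0.15). The part of these markers in the members' differences was not tested. The Actb gap averaged -0.48 in rTg4510 and -0.37 in DN CA1, and -0.52 and -0.30 in DG. With it as a covariate the 8 calls in CA1 were kept, as were those of Camk4 (1.01, adjusted p = 0.0361), Homer2 (0.69, adjusted p = 0.0191) and Itpka (-1.03, adjusted p = 0.00196) in DG, while Rasgrf1 in DG was not called (-0.24, adjusted p = 0.317).

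tTA mice differed from DN mice without the tau transgene. In CA1, 2 of 9 members were lower in tTA mice, Rasgrf1 and Rasd2, where 8.52% of all genes were lower. Rasgrf1 read 10.19 to 10.49 in 5 tTA arrays and 11.07 to 11.46 in 6 DN arrays. The groups were far apart, at -0.83 ± 0.11 (SE, adjusted p = 0.00014), and its second probe set gave -1.14 (adjusted p = 2.18e-05). The third Rasgrf1 probe set was not called and its arrays overlapped, with means of 8.92 in tTA and 9.48 in DN CA1. Rasd2 differed by -0.87 (adjusted p = 0.0468), with overlapping arrays, and of the fits that left out 1 mouse only those without mouse4592 or mouse4626 kept the call, with an adjusted p from 0.0633 to 0.116 without any other. Its second probe set was lower with arrays wholly apart (-1.14 ± 0.17, SE, adjusted p = 0.000399). Itpka, Nrgn, Homer2 and Rin1 differed by -0.06 to -0.01 between tTA and DN CA1, with 95% intervals no wider than -0.67 to 0.60. Camk2b differed by -0.42 without a call (adjusted p = 0.0603), although its tTA and DN arrays did not overlap.

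In CA3, 1 of 9 was higher in tTA mice, Homer2, where 4.41% of all genes were. It read 6.997, 7.14, 7.27, 7.31 and 7.81 in tTA and 6.52, 6.59, 6.63, 6.64 and 7.02 in DN arrays, and only the lowest tTA and the highest DN array crossed. The difference was 0.63 ± 0.17 (SE, adjusted p = 0.0309), and the call was lost without mouse4592, mouse4797, mouse4866, mouse4883 or mouse4886 (differences of 0.50 to 0.62, adjusted p from 0.06 to 0.0778). Rasgrf1 differed by -0.48 (adjusted p = 0.056) with arrays apart, was called lower by its second probe set (-0.65, adjusted p = 0.016), and was called by the brightest too without mouse4580 (-0.53, adjusted p = 0.0488). The third Rasgrf1 probe set was not called, with means of 8.09 in tTA and 8.25 in DN CA3.

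In DG, 2 of 9 members were higher in tTA mice, against 7.98% of all genes, and 3 were lower, against 9.49%. Homer2 read 7.70, 7.97, 8.08, 8.28 and 8.34 in tTA DG, with DN arrays from 6.99 to 7.72. Only 1 DN array reached the lowest tTA array, and the rise was 0.83 ± 0.14 (SE, adjusted p = 0.000915). Camk4 read 6.92, 6.97, 7.37, 7.50 and 7.56 in tTA, all above the DN arrays (6.23 to 6.87), and rose by 0.69 (adjusted p = 0.0422). That call of Camk4 was kept without mouse4592, mouse4626 or mouse4825 and lost without any other tTA or DN mouse (adjusted p from 0.0552 to 0.0975). The second Camk4 probe set gave 0.62 (adjusted p = 0.0321). Rin1 read 5.05, 5.67, 6.37, 6.37 and 6.40 in tTA, all below the DN arrays (6.77 to 6.94), and differed by -0.90 ± 0.21 (SE, adjusted p = 0.00627). Itpka, at 6.13 to 7.03 against 7.31 to 7.61, differed by -0.68 ± 0.15 (SE, adjusted p = 0.00423). Rasgrf1, at 9.91 to 10.23 against 10.57 to 10.76, differed by -0.59 ± 0.12 (SE, adjusted p = 0.0038).

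Measures of tissue and RNA moved with tTA against DN as well. In DG, 8 of 11 microglia markers (median 1.31) and 7 of 8 astrocyte markers (median 1.09) were higher in tTA mice, and the microglia mean level ran from 6.17 to 6.80 in tTA and from 4.76 to 5.36 in DN arrays. In CA3, 8 of 11 microglia and 5 of 8 astrocyte markers were higher, with microglia levels of 5.32 to 6.02 in tTA and 4.76 to 5.07 in DN. In CA1, 3 of 11 and 4 of 8 were higher, with microglia levels of 5.52 to 5.91 and 5.05 to 5.44. Neuronal markers moved too. Of 7 dentate granule markers in DG, 3 were lower in tTA mice and 1 was higher (median -0.33), where 9.49% of all genes were lower. Of 3 CA1 pyramidal markers measured in CA1, 1 was lower and 0 higher (median -0.43), where 8.52% of all genes were lower. Of 4 CA3 pyramidal markers measured in CA3, 2 were lower and 0 higher (median -0.40), where 542 of 11807 genes were lower. Of 14 pan-neuronal markers, 3 were lower and 0 higher in CA1 (median -0.26), while 2 were lower and 2 higher in DG. The Actb gap averaged -0.70 in tTA and -0.37 in DN CA1, -0.64 and -0.45 in CA3 and -0.61 and -0.30 in DG. With that gap as a covariate, Rasgrf1 in CA1 was still called (-0.71, adjusted p = 0.0116), as was Homer2 in DG (0.98, adjusted p = 0.0057). Rasd2 in CA1 (-0.78 in place of -0.87, adjusted p = 0.286), Homer2 in CA3 (0.67 in place of 0.63, adjusted p = 0.0618) and Camk4 in DG (0.73 in place of 0.69, adjusted p = 0.184) were not called in that fit, with differences close to those without the covariate. Rasgrf1 in DG was not called either, and its difference was smaller (-0.35 in place of -0.59, adjusted p = 0.181). The part of the glial and neuronal markers in these differences was not tested.

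**Figure D4:**
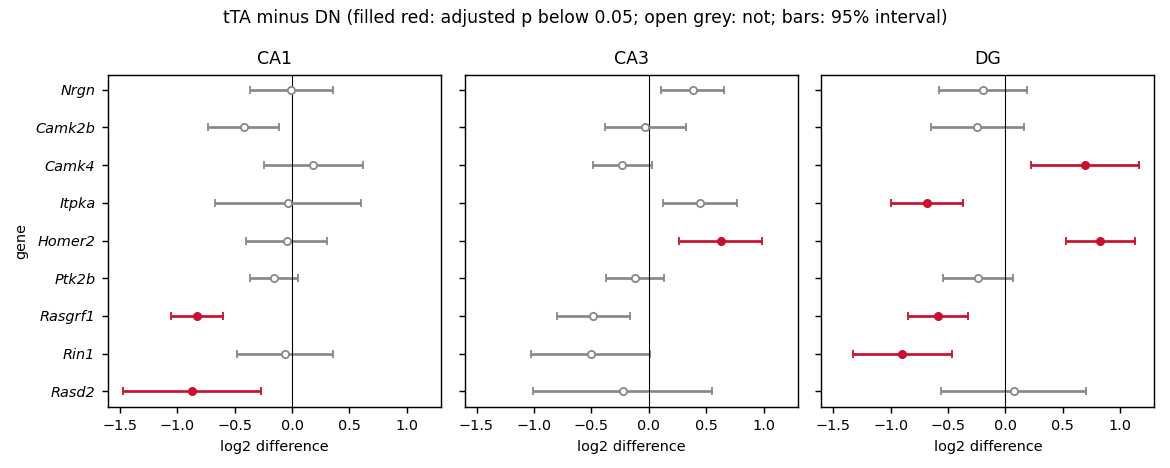
Differences tTA minus DN for each gene in CA1, CA3 and DG (x axis, log2 difference; bars, 95% interval), with filled red points called at adjusted p below 0.05. Rasgrf1 lies left of 0 in all 3 panels, and Homer2 lies right of 0 in CA3 and DG and near 0 in CA1.

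The change of the tTA minus DN difference between layers was tested after these values had been seen. Only Homer2 was called, with a difference 0.87 ± 0.21 (SE) more positive in DG than in CA1 (adjusted p = 0.0177), 1 of 9 members against 1.11% of all genes. The call was lost without mouse4886 (0.83, adjusted p = 0.0583) or mouse4570 (0.78, adjusted p = 0.0706). For CA3 against CA1, 0 of 9 were called, against 0.762% of all genes, with Homer2 at 0.67 (95% interval 0.23 to 1.11, adjusted p = 0.219), and 2 members had an unadjusted p below 0.05. Itpka, Rin1 and Camk4 were called between tTA and DN in DG and not in CA1. Their gaps of DG minus CA1 were not called, at -0.65 (adjusted p = 0.326), -0.84 (adjusted p = 0.172) and 0.51 (adjusted p = 0.424). The tTA minus DN differences of these genes are thus not shown to differ between those layers.

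**Figure D5:**
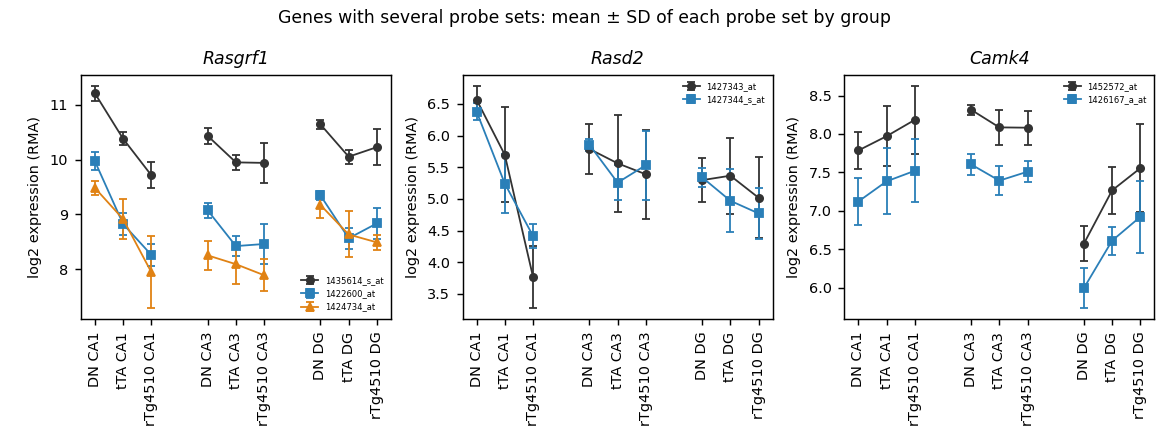
Mean ± SD of every probe set of the 3 genes with several probe sets (y axis, log2 RMA) over the 9 groups (x axis, lines joining the genotypes of a subfield). In CA1 all Rasgrf1 and Rasd2 probe sets step down from DN over tTA to rTg4510, while in DG both Camk4 probe sets are lowest in DN.

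Seen over all 9 groups, the members took different orders. rTg4510 CA1 was the lowest group for Camk2b, Nrgn, Ptk2b, Rasgrf1, Rin1 and Rasd2, and it lay below the next group by more than the larger of both SDs for Camk2b, Ptk2b and Rasd2 only. DN CA1 was the highest group for 7 genes, all but Camk4 and Rin1, and it stood above the next by more than that spread for Rasgrf1 and Rasd2 only. For Itpka and Homer2 the top groups were DN CA1 and tTA CA1, which did not differ beyond their spread, and both lay beyond it above the third group, DN DG for Itpka (7.44) and rTg4510 CA1 for Homer2 (8.07). Camk4 ran from DN CA3 (8.32) down to DN DG (6.57), and only the last step, from tTA DG (7.27), exceeded the spread. For Rin1 and Nrgn no step between neighbors exceeded it.

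The genes whose 9 group means followed each member most closely were looked up among 2322 genes whose group means spanned at least 1 on the log2 scale. The points share mice and layers, so the correlations are descriptions over 9 group means. Rasgrf1 was closest to Gria1, an AMPA receptor subunit (r = 0.978), and Gas7 (0.971). Rasd2 was closest to Crmp1 (0.970) and Rbfox3, the neuronal NeuN antigen (0.947). Camk4 was closest to Anxa7 (0.976) and Pex7 (0.965), Homer2 to Klhl13 (0.969) and Tmsb10 (0.964), and Itpka to Dyrk3 (0.965) and Bcr (0.962). Camk2b was closest to Septin11 (0.956) and Zfp821 (0.946), Rin1 to Slc17a6 (0.945) and Elapor1 (0.907), Ptk2b to Nfyb (0.923) and Dusp7 (0.922), and Nrgn to Tmem191c (0.910) and Slc8a2 (0.887).

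Other genes of these pathways were read from fixed lists that did not include the members, and that were also chosen with earlier results of these data known. Between rTg4510 and tTA in CA1, where 6.23% of all genes were higher and 5.40% lower, calls over the lists ran both ways. Of 13 CaM kinase and calmodulin genes, 0 rose and 3 fell (median -0.06, as against -0.04 over all genes): Camkv, a kinase-like calmodulin-binding protein (-0.83, adjusted p = 0.00759), Dapk1, a death-associated kinase (-0.76, adjusted p = 0.0125), and Camk2a, the partner subunit of Camk2b (-0.53, adjusted p = 0.0256). Of 7 calcineurin genes, 3 rose and 2 fell (median -0.24). The calcineurin regulators Rcan2 (0.88, adjusted p = 0.00387) and Rcan3 (0.81, adjusted p = 0.048) were among the first, and the regulatory subunit Ppp3r1 (-0.64, adjusted p = 0.0173) among the second.

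Of 17 genes of inositol trisphosphate, diacylglycerol and store calcium, 1 rose and 3 fell (median -0.01). The gene that rose was Itpkb, the more widely expressed relative of Itpka, from 4.73 ± 0.51 (SD, n = 5) in tTA to 5.94 ± 0.60 (SD, n = 5) in rTg4510, a difference of 1.21 ± 0.26 (SE, adjusted p = 0.00767) opposite to the fall of Itpka. The tTA level of Itpkb was dim, below 5.04, the median over all probe sets. Dgkz, a diacylglycerol kinase (-0.85, adjusted p = 0.00277), and Prkcb, a protein kinase C (-0.79, adjusted p = 0.0179), were among those that fell. Of 11 postsynaptic scaffold genes, 0 rose and 3 fell (median -0.36): Shank3 (-0.85, adjusted p = 0.0037), which binds Homer proteins, Baiap2 (-0.64, adjusted p = 0.00733) and Dlg3 (-0.51, adjusted p = 0.0103).

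Of 20 Ras proteins and their regulators, 2 rose and 4 fell (median -0.04). Rasgrf2, the close relative of Rasgrf1, rose from 3.98 ± 0.53 (SD, n = 5) to 4.99 ± 0.42 (SD, n = 5), a difference of 1.01 ± 0.26 (SE, adjusted p = 0.019) at a dim level, opposite to the fall of Rasgrf1. The small GTPase Rasl10a (-1.06, adjusted p = 0.00284) and the Rap exchange factor Rapgef1 (-0.61, adjusted p = 0.00477) fell, Rasl10a to a dim level in rTg4510 CA1 (4.24). Of 15 genes of the MAP kinase cascade and nonreceptor tyrosine kinases, 1 rose and 4 fell (median -0.05), with the Src family kinase Yes1 at 1.40 (adjusted p = 0.00532), the ERK phosphatase Dusp6 at -0.87 (adjusted p = 0.00574) and the scaffold Ksr1 at -0.85 (adjusted p = 0.00627). In CA3 and DG no list had more than 1 gene called in either direction between rTg4510 and tTA. Between tTA and DN in CA1, where 8.52% of all genes were lower and 7.94% higher, fallen genes numbered 2 of 13, 2 of 7, 5 of 17, 4 of 11, 4 of 20 and 2 of 15 in the lists as ordered here, and 1 gene rose, in the Ras list.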

How the data were processed

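RNA of laser-captured CA1, CA3 and DG layers was amplified (Ovation Pico WTA) and hybridized by the authors to Affymetrix HT-MG-430A arrays, and the deposited values are log2 RMA intensities, 1 table for all 49 arrays. The methods speak of anti-log RMA, but values from 1.944 to 13.826 with array medians from 4.947 to 5.062 are a log scale, whose base 2 was inferred from that range. RMA forces arrays onto a common distribution, so a shift of all transcripts cannot be seen, and it understates changes of dim probe sets. Precision is set by the number of arrays, which carry no read depth.

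Of 22716 probe sets, 90 controls were left out and 22626 tested. Names came from the platform annotation: 18003 probe sets had 1 symbol, 287 several and 4336 none here. A gene with several probe sets was read by its brightest (highest mean of the 49 arrays). limma 3.58.1 (R 4.3.3) was fitted to the 3 genotypes within each subfield for genotype comparisons, after the 1-way model of the study, and to all 9 groups with mouse as a random block (within-mouse correlation 0.117) for subfields and interactions. Calls are two-sided at a Benjamini-Hochberg adjusted p below 0.05 over all probe sets. Mice were paired across subfields by the animal number of the labels: deviations of the 47 same-mouse pairs correlated at a median of 0.119 (from -0.148 to 0.323; 27 above 0.1), against -0.00146 for different mice.

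Alternatives were a filter on dim probe sets, quantile and median scaling, array weights, an intensity trend, the mean of probe sets, pairs of genotypes only, the methods' least significant difference test, the Actb gap as a covariate, and models with and without the mouse block. Each mouse of the genotypes compared was also left out in turn. Scripts were tested on simulated data. The named genes are every member, and of each fixed pathway list the 3 measured genes with the largest called difference between rTg4510 and tTA in CA1; 2 most alike genes were taken per member. The members and lists were chosen with earlier results of these data known, and listed genes without a probe set of their own symbol were not analysed here. Promoter windows and gene positions are RefSeq, GRCm38.p6; the arrays give no positions, and proteins were not used here.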

Additional observations from a re-analysis of the deposited data

Results flagged for a closer look

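In 5 of 81 groups of arrays, 1 per gene and group, the highest or lowest array stood far from the rest by Dixon's criterion, which chance meets in about 1 in 20. The Camk2b array of mouse4570 in tTA CA1 read 9.54, where the next read 9.85. Rasd2 of mouse4535 in rTg4510 CA1 read 4.63, above 3.76 in the next array. In tTA DG, Nrgn of mouse4580 read 9.62 (next 8.86) and Itpka of mouse4570 read 6.13 (next 6.78). Homer2 of mouse4825 in DN CA3 read 7.02 (next 6.64).

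The rTg4510 minus tTA difference varied between layers by the interaction test. CA1 minus CA3 gave -0.76 for Camk2b, -0.99 for Nrgn, -1.70 for Itpka, -0.57 for Ptk2b, -0.65 for Rasgrf1, -1.76 for Rin1 and -1.76 for Rasd2. CA1 minus DG gave -0.89 for Nrgn, -1.60 for Itpka, -0.72 for Ptk2b, -0.83 for Rasgrf1, -1.58 for Rin1 and -1.58 for Rasd2. The tTA minus DN difference of Homer2 was 0.87 higher in DG than in CA1.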

How the results depend on the processing

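The 8 members lower in CA1 of rTg4510 against tTA mice numbered 8 without any 1 rTg4510 or tTA mouse and 7 or 8 under the other settings. Rasd2 alone was lost, in the least significant difference test on anti-log values (adjusted p = 0.0624). Over all comparisons, 41 of 57 called differences of single members were called in every setting run, and of 3078 other fits 109 lost a call, 54 gained one and 0 changed sign with a call. Between tTA and DN in CA1, 1 member in place of 2 was called after quantile normalization again, median centring, the Actb covariate, the least significant difference test on log2 values and the replicate block model of 9 groups, 3 with the dim filter, array weights, the intensity trend and only both genotypes (Camk2b added), and 1 to 2 without 1 mouse. Between tTA and DN in CA3, 2 in place of 1 were called with the dim filter, array weights, the intensity trend, the mean of probe sets and the replicate block model, 3 with only both genotypes, 0 with the Actb covariate and the least significant difference test on log2 values, and 0 to 2 without 1 mouse. Between rTg4510 and DN in CA3, 1 in place of 0 was called with array weights, the intensity trend, the mean of probe sets and the replicate block model, and 0 to 1 without 1 mouse. In DG, the Actb covariate left 3 of the 5 called between tTA and DN. Between CA1 and CA3 of DN mice, 3 in place of 6 were called with no replicate block and 3 to 4 without 1 mouse. For the CA1 minus CA3 interaction 3 to 7 were called without 1 mouse, and for the DG minus CA1 interaction of tTA and DN, added after seeing the data, 0 to 1. The block changed the count by over 1.5 times only where given here. The cause of these changes was not tested. Levels below (Rasd2) or close to (Rin1) the median over all probe sets in rTg4510 CA1 limit how large a fall could be read.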
